A study of Mus musculus with 18 samples.

Results

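Urea cycle and amino acid catabolism genes were followed in mouse liver over the day. The list holds 42 genes, chosen by symbol, of the 14451 genes in the deposited table, and all 42 were measured above the lowest possible value in every liver. The livers came from wild-type male mice of 8 to 9 weeks of age, kept in 12 h of light and 12 h of dark. Zeitgeber time (ZT) counts the hours after lights on. Livers were taken at ZT1, ZT5 and ZT9 in the light and at ZT13, ZT17 and ZT21 in the dark, with 3 mice at each time point and 18 livers in all. RNA sequencing of polyadenylated RNA from whole liver gave 1 library per mouse, each mouse was sampled once, the labels name no treatment, and the study sequenced the mice with the best RNA of each group.

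Amino acids that are not used to make protein are broken down in the liver, where their carbon enters the citric acid cycle or glucose synthesis. Their nitrogen is collected by transaminases on glutamate and aspartate, or released as ammonia, and hepatocytes of the periportal zone convert it to urea. A narrow ring of pericentral hepatocytes binds the ammonia that is left as glutamine. Feeding in mice falls mostly in the dark phase.

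The deposited values are estimated reads with a small offset, per 1000000 reads, on a linear scale and not divided by transcript length, so they were compared between livers and not between genes. Libraries held from 10268168 to 23242842 estimated reads, and the lowest value of any of the 42 genes stood for 76 reads. The sum of 5 hepatocyte markers lay between 71683 and 98066 over the livers. Its mean was highest at ZT17 (91144) and lowest at ZT9 (72391), and 1 gene, Ttr, passed the 24 h test described below. Pericentral markers had their highest mean sum at ZT13 (7309) and their lowest at ZT21 (4401), and 5 of the 8 passed that test. Most of this sum was Cyp2e1, with a mean of 4662 over the livers. Cyp2e1, Cyp1a2, Rhbg and Lect2 had their highest means at ZT13, whereas Lgr5, Axin2, Tbx3 and Slc1a2 had theirs at ZT5. The periportal list had its highest mean sum at ZT9 (3498) and its lowest at ZT13 (2155). Much of that difference was Pck1, with means of 1590 at ZT9 and 358 at ZT13. Cyp2f2, with the highest mean of the list, was highest at ZT17 and did not pass (24 h test, adjusted *P* = 0.138). In all, 3 of the 5 genes passed, Pck1, Cdh1 and Sds, and Sds is itself among the 42. Kupffer cell markers had sums of 87.7 to 236 per liver, with a mean of 206 at ZT9 and 119.5 at ZT21, and 3 of 6 passed. Sinusoidal endothelial markers had mean sums of 212 at ZT5 and 148 at ZT21, and 2 of 6 passed. Stellate cell markers summed to 142 to 229.7 per liver (0 of 6 passed), bile duct markers to 31.5 to 57.5 (3 of 5), markers of neutrophils and lymphocytes to 5.96 to 14.3 (1 of 5), and of 6 pancreatic markers 1 was measured, at 5.99 to 15.3. The part of these shifts in the changes given below was not tested, and in whole liver fewer cells of a type and less RNA per cell cannot be told apart. Over the 42 genes the livers of ZT5 were among the least alike. ZT5 replicate 1 held the highest value of 10 of the 42 genes, the highest sum of red blood cell markers (674, against 108 to 407 in the other livers) and the lowest level of the pericentral gene Glul, while ZT5 replicate 3 was the only liver whose 17 clock genes lay nearer to another time point (ZT9) than to its own. ZT13 replicate 1 also held the highest value of 10 of the 42 genes.

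A 24 h cosine fitted to log2(value + 1) over all genes passed an adjusted *P*-value of 0.05 for 18 of the 42 genes (42.9%), beside 35.3% of the 14449 genes tested and 46.7% of the 7531 genes with a mean value of at least 10. The share of rhythmic genes was therefore near that of other well expressed genes. Of the 18, 10 had their fitted peak in the dark and 8 in the light. Over all genes, 2469 of the 5103 that passed peaked in the dark and 2634 in the light (17.1% and 18.2% of all genes tested). This split moved both ways with the processing. After rescaling to equal totals, which moved single livers by between -0.10 and 0.10 on the log2 scale, 17 genes passed, of which 6 peaked in the dark and 11 in the light (Nags, Tat and Prodh2 lost the call, Cdo1 and Oat gained it), and the share of dark peaks among all genes that passed went from 48.4% to 32.1%. Without ZT5 replicates 1 and 3, 21 genes passed, of which 16 peaked in the dark and 5 in the light, while the share of dark peaks among all genes that passed was 48.8%. A test of any difference among the 6 time points passed for 20 genes (26.3% of all genes tested), 15 of them also by the cosine. The rank test JTK, written again from its description, called 11 genes (14.1% of all genes tested), and these 11 were among the 18. Its number of calls over all genes, 2039, depended on how ties in the cosine orders were treated. With equal cosines taken as 1 group it called 3237 genes and 14 of the 42, and without ZT5 replicates 1 and 3 it called 912 genes and 9 of the 42. For 14 of the 18 the highest time point mean was at least 1.5 times the lowest. Over all genes this held for 3091 of the 5103 that passed the 24 h test, which is 21.4% of the 14449 tested.

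**Figure D1:**
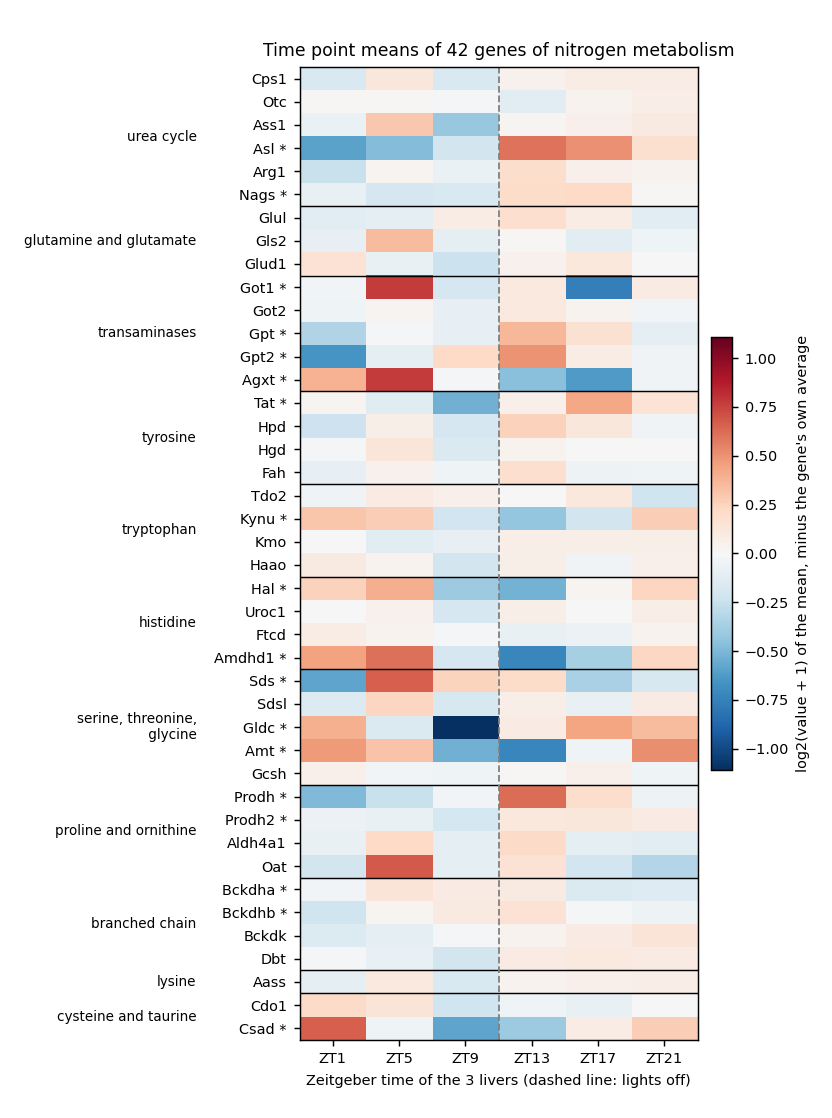
Time point means of the 42 genes as log2(value + 1), each row centred on the gene's own average over the 6 time points and grouped by pathway; columns are zeitgeber times, each the mean of 3 livers, and a star marks the 18 genes with a 24 h rhythm. Asl, Prodh, Gpt2 and Gpt are red at ZT13, where Amdhd1, Amt, Agxt and Kynu are blue, and most rows of the urea cycle and of branched chain catabolism stay pale.

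Dividing each gene's highest time point mean by its lowest gave a median ratio of 1.34 over the 42 genes, beside 1.48 over all genes and 1.31 over genes with a mean of at least 10. Ratios ran from 1.08 for Gcsh to 2.94 for Gldc, and 11 genes reached 2. The 3 livers of the highest time point all lay above the 3 of the lowest in 36 of the 42 genes, as they did for 70.8% of all genes, a comparison that sets the extremes of 6 time points against each other. The median coefficient of variation among replicates was 0.0864 over these genes, beside 0.138 over all genes. These 2 medians are of genes at unlike levels. The median mean value of all genes was 11.1, whereas 40 of the 42 had a mean of at least 10, most of them far higher.

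Of the 6 urea cycle genes, 2 passed the 24 h test, both with a peak in the dark. The clearest was Asl, argininosuccinate lyase, which splits argininosuccinate into arginine and fumarate. The normalized values of Asl were 253, 265 and 315 at ZT1, 306, 271 and 326 at ZT5, 406, 310.1 and 379.6 at ZT9, 756, 585 and 571 at ZT13, 601, 632 and 557 at ZT17, and 538, 469 and 424 at ZT21. All 9 dark livers lay above all 9 light livers. The mean rose from 278 ± 32.6 (SD, n = 3) at ZT1 to 637 ± 103 at ZT13, 2.29-fold, and the cosine had a peak to trough of 1.27 ± 0.12 (SE) on the log2 scale with a peak at ZT15.6 ± 0.370 h (SE), adjusted *P* = 2.69e-06. Nags, whose product N-acetylglutamate switches on the first enzyme of the cycle, had a smaller rhythm, with 48.5 ± 0.11 at ZT5 and 64.7 ± 7.43 at ZT17 (1.34-fold, adjusted *P* = 0.00878). Exons of Nags overlap an antisense gene, Gm11586, and with the kit used reads of the 2 strands cannot be told apart.

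The other 4 genes of the cycle did not pass the 24 h test. Cps1, carbamoyl phosphate synthetase 1 and the entry of ammonia into the cycle, had the highest values of the 42, which are not corrected for length, with time point means between 3410.1 and 4193, a peak to trough of 0.12 ± 0.12 log2 and an adjusted *P* of 0.709. Otc, ornithine transcarbamylase, stayed between 384 and 533 in all 18 livers (adjusted *P* = 0.391). For Arg1, arginase 1, which releases urea, means were 856 ± 79.2 at ZT1 and 1166 ± 83.5 at ZT13 (adjusted *P* = 0.0943), and the call was gained when ZT5 replicate 1 was left out. Ass1, argininosuccinate synthase, passed only the test of any difference (adjusted *P* = 0.0230, against 0.461 for the cosine). In single livers Ass1 stood at 2439, 2721 and 2629 at ZT1, 4428, 2698 and 2974 at ZT5, 2049.6, 2082 and 2006 at ZT9, 2817, 2674 and 2893 at ZT13, 2823, 2802 and 2906 at ZT17, and 3265, 2777 and 2722 at ZT21. The 3 livers at ZT9 were the lowest of all 18, and ZT5 replicate 1 was the highest, with the next liver at 3265. Without ZT5 replicates 1 and 3 together, the cosine of Ass1 passed, with a peak to trough of 0.43 log2, a peak at ZT19.2 and an adjusted *P* of 0.0165. The call of any difference for Ass1 was lost without ZT9 replicate 1, 2 or 3.

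Glutamine and glutamate enzymes gave no 24 h call among 3 genes. Glud1, glutamate dehydrogenase, which frees ammonia from glutamate in mitochondria, passed the test of any difference (adjusted *P* = 0.0229), with 1075 ± 52.8 at ZT1 and 814 ± 42.8 at ZT9. That call was lost without ZT1 replicate 2 or ZT9 replicate 2 or 3, and after rescaling to equal totals. The cosine of Glud1 (adjusted *P* = 0.0667) passed without ZT21 replicate 3, with a variance trend and in the joint fit with 12 h terms. Glul, glutamine synthetase, had its highest mean at ZT13 (803 ± 8.84) and its lowest at ZT1 (649.9 ± 86.4), with a cosine adjusted *P* of 0.0667. It passed with a variance trend, and without ZT1 replicate 1, ZT5 replicate 1 or ZT5 replicate 3. In ZT5 replicate 1 Glul stood at 459.7, beside 749 and 769 in the other livers of that time point. Gls2, the liver glutaminase, stood at 471 in ZT5 replicate 1 and between 251 and 343 elsewhere (adjusted *P* = 0.286). Exons of Glul and of Gls2 overlap those of Teddm2 and Spryd4 on the opposite strand.

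Among the transaminases 4 of 5 genes were called, 1 of them (Got1) by a narrow margin, and their peaks fell on both sides of the day. Alanine aminotransferases, which move nitrogen between alanine and glutamate, peaked at dusk. Gpt was measured at 169, 185 and 194 at ZT1, 232, 209 and 243 at ZT5, 204, 195 and 249 at ZT9, 310.1, 295 and 286 at ZT13, 254, 265 and 257 at ZT17, and 247, 208 and 189 at ZT21. Gpt is the cytosolic form, and its ZT13 livers were the 3 highest of the 18. Gpt2 values were 244, 175 and 234 at ZT1, 314, 255 and 385 at ZT5, 438, 327 and 436 at ZT9, 536, 445 and 469 at ZT13, 378, 356 and 358 at ZT17, and 345, 326 and 327 at ZT21. Gpt2 is the mitochondrial form, and here the ZT13 livers were again the 3 highest and the ZT1 livers the 3 lowest. Peak to trough was 0.54 ± 0.11 log2 for Gpt, at ZT13.7 ± 0.798 h (adjusted *P* = 0.00412), and 0.93 ± 0.15 for Gpt2, at ZT12.9 ± 0.607 h (adjusted *P* = 0.000424).

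Agxt and Got1 had their highest means at ZT5 and their lowest at ZT17. Agxt, alanine-glyoxylate aminotransferase, removes glyoxylate in peroxisomes. The normalized values of Agxt were 194, 239 and 218 at ZT1, 378, 239 and 239 at ZT5, 153, 163 and 174 at ZT9, 126, 110.3 and 125 at ZT13, 111, 109.5 and 102 at ZT17, and 181, 164 and 142 at ZT21. The 6 livers of ZT13 and ZT17 were the lowest of all, and ZT5 replicate 1 was the highest while the other 2 livers of ZT5 were level with the highest liver of ZT1. The mean of Agxt fell from 285 ± 80.2 at ZT5 to 107 ± 4.82 at ZT17, with a peak to trough of 1.29 ± 0.13 log2 at ZT3.56 ± 0.388 h (adjusted *P* = 4.57e-06). Got1, the cytosolic aspartate aminotransferase, moves nitrogen between glutamate and aspartate, and aspartate carries the second nitrogen into urea. In single livers Got1 stood at 109, 118 and 113 at ZT1, 203, 207 and 187 at ZT5, 101, 85.5 and 119 at ZT9, 199, 69.5 and 105 at ZT13, 94.6, 44.7 and 65.0 at ZT17, and 125, 112 and 133 at ZT21. ZT5 livers were alike, whereas at ZT13 replicate 1 reached the level of ZT5 and replicate 2 was among the lowest 3 livers. Means were 199 ± 10.7 at ZT5 and 68.1 ± 25.1 at ZT17 (2.92-fold), and the cosine only just passed (adjusted *P* = 0.0435). This call was lost without ZT5 replicate 1, 2 or 3, ZT9 replicate 3, ZT13 replicate 2 or 3, or ZT17 replicate 1, 2 or 3, with adjusted *P* of up to 0.119. Got2, the mitochondrial form, stayed between 453 and 565 (adjusted *P* = 0.491).

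Within the list, degradation of the aromatic amino acids gave calls at single steps. In the tyrosine pathway 1 of 4 genes passed, Tat, tyrosine aminotransferase, the first step and a well known target of glucocorticoids. Tat was measured at 761, 1177 and 1380.2 at ZT1, 1076, 1041 and 834 at ZT5, 438, 937 and 871 at ZT9, 927, 954 and 1491 at ZT13, 1423, 1436 and 1509 at ZT17, and 1047, 1490.4 and 1058 at ZT21. Time points overlapped widely, with livers of ZT1, ZT13 and ZT21 near the level of ZT17, whose 3 livers agreed closely. Means were 749 ± 271 at ZT9 and 1456 ± 46.4 at ZT17, with a peak at ZT19.2 ± 1.17 h (adjusted *P* = 0.0444). The call was lost without ZT1 replicate 2, ZT5 replicate 3, any 1 liver of ZT9, ZT13 replicate 1 or 2, any 1 liver of ZT17, or ZT21 replicate 2, with adjusted *P* of up to 0.0804, and the test of any difference did not pass (adjusted *P* = 0.110). The later steps Hpd, Hgd and Fah gave no 24 h call, at ratios of 1.40, 1.23 and 1.21, although Hpd, 4-hydroxyphenylpyruvate dioxygenase, passed the test of any difference (adjusted *P* = 0.0343). That call was lost without any 1 liver of ZT1, ZT9 replicate 2 or 3, ZT13 replicate 1 or 2, or ZT17 replicate 1.

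Within the list, the call in the kynurenine pathway of tryptophan was Kynu, kynureninase, which cleaves kynurenine and 3-hydroxykynurenine. Kynu values were 195, 185 and 194 at ZT1, 184, 198 and 178 at ZT5, 144, 132 and 124 at ZT9, 118, 110.4 and 115 at ZT13, 132, 137 and 134 at ZT17, and 195, 183 and 182 at ZT21. All 9 livers of ZT21, ZT1 and ZT5 lay above all 9 of ZT9, ZT13 and ZT17. The peak to trough was 0.81 ± 0.07 log2 with a peak at ZT0.963 ± 0.339 h (adjusted *P* = 1.22e-06). Tdo2, tryptophan dioxygenase and the first step, had a ratio of 1.27 (adjusted *P* = 0.329), Kmo 1.15 (0.130) and Haao 1.23 (0.304), and none of them was called. Of the further aromatic genes described below, outside this list, 8 of 9 passed the 24 h test. They include Afmid (ratio 1.76, adjusted *P* = 0.00251) and Acmsd (3.27, 0.00153).

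Histidine is broken down in 4 steps, and the first and the third were called. Hal, histidine ammonia-lyase, removes ammonia from histidine. The normalized values of Hal were 419, 488 and 483 at ZT1, 582, 466 and 488 at ZT5, 242, 315 and 323 at ZT9, 248, 317 and 241 at ZT13, 396, 365 and 422 at ZT17, and 437, 525 and 407 at ZT21. Livers of ZT9 and ZT13 were the lowest 6. Amdhd1, imidazolonepropionase, opens the ring. In single livers Amdhd1 stood at 216, 220.5 and 220.3 at ZT1, 274, 240.0 and 224 at ZT5, 131, 151 and 140.5 at ZT9, 91.6, 103 and 96.8 at ZT13, 122, 118 and 134 at ZT17, and 194, 194 and 177 at ZT21. The 3 livers of ZT13 were the lowest of all, and no liver of ZT9, ZT13 or ZT17 reached those of ZT21, ZT1 and ZT5. Amdhd1 fell from 246 ± 25.9 at ZT5 to 97.0 ± 5.56 at ZT13, 1.28 ± 0.10 log2 peak to trough at ZT1.98 ± 0.308 h (adjusted *P* = 4.50e-07, the smallest of the 42), and Hal from 512 ± 61.8 to 269 ± 42.2, 0.88 ± 0.15 log2 at ZT0.326 ± 0.654 h (adjusted *P* = 0.000802). The steps after each of them, Uroc1 and Ftcd, were not called (adjusted *P* = 0.428 and 0.278), with time point means of 341 to 410.0 and 370.5 to 416.

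Hal and Amdhd1 are also neighbours. In the GENCODE annotation of GRCm38, Hal lies on the plus strand of chromosome 10 from 93488768 to 93519304 and Amdhd1 on the minus strand from 93523338 to 93540033, so that their 3′ ends face each other with 4033 bases between them. Their promoters are shown because the 2 genes were lowest at the same time of day, together with those of Agxt, which had the largest fitted change among the genes with a peak in the light, and Gldc, which had the largest ratio of all 42. Each is the 250 bases before the RefSeq start, on the gene's own strand and written 5′ to 3′. Capitals mark the match found among the 6 motifs described further on.
Hal, chr10:93488518-93488767, plus strand: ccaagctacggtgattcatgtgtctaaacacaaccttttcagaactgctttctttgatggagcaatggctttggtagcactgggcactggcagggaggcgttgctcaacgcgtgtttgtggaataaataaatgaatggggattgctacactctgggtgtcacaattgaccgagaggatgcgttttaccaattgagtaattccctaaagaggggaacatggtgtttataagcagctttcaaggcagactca
Amdhd1, chr10:93540034-93540283, minus strand: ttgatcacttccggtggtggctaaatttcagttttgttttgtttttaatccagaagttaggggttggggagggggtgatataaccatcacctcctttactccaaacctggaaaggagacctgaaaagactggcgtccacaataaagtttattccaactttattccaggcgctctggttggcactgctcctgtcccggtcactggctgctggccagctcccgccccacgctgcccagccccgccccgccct
Agxt, chr1:93134990-93135239, plus strand: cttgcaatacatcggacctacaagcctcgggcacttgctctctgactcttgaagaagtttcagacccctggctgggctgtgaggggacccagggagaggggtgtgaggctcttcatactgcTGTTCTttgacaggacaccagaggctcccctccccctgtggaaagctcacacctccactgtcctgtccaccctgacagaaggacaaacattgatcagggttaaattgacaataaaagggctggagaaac
Gldc, chr19:30175442-30175691, minus strand: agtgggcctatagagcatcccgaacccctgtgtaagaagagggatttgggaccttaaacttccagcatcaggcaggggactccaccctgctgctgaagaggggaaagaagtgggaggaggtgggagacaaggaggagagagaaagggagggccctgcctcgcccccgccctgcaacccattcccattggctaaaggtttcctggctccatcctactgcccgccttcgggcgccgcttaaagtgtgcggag
The capitals in Agxt spell the glucocorticoid motif AGAACA as it reads on the other strand.

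Serine, threonine and glycine enzymes gave 3 calls among 5 genes. Sds, serine dehydratase, turns serine into pyruvate and ammonia and is known to follow protein intake and glucagon. Sds was measured at 52.7, 70.5 and 79.3 at ZT1, 200.3, 143 and 139.8 at ZT5, 95.3, 121 and 145 at ZT9, 134, 98.2 and 118 at ZT13, 75.4, 87.3 and 74.5 at ZT17, and 106, 79.8 and 83.2 at ZT21. Livers of ZT5 were the highest apart from ZT9 replicate 3, and those of ZT1 were among the lowest. The mean went from 67.5 ± 13.5 at ZT1 to 161 ± 34.0 at ZT5, 2.39-fold within 4 h, and the fitted peak was at ZT8.47 ± 0.994 h (adjusted *P* = 0.0178). JTK did not call Sds (q = 0.236). Exons of Sds overlap those of Plbd2 and Gm15690 on the opposite strand. Sdsl, a related gene whose start lies 3715 bases from that of Sds on chromosome 5, was not called (time point means of 7.61 to 10.5, adjusted *P* = 0.969).

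The glycine cleavage system splits glycine into carbon dioxide, ammonia and a one-carbon unit, and 2 of its 3 genes in the list were called. Gldc, the decarboxylase, had the largest ratio of the 42 genes. Gldc values were 191, 186 and 202 at ZT1, 161, 126 and 107 at ZT5, 70.02, 70.4 and 61.9 at ZT9, 179, 148 and 141 at ZT13, 198, 199 and 198 at ZT17, and 182, 201 and 177 at ZT21. The 3 livers of ZT9 lay far below all others, while those of ZT17 were close to each other. From 67.4 ± 4.81 at ZT9 the mean rose to 156 ± 20.3 at ZT13 and 198 ± 0.85 at ZT17, then stayed above 180 to ZT1. The cosine gave 1.29 ± 0.21 log2 at ZT20.5 ± 0.622 h (adjusted *P* = 0.000520). Gldc was also the only 1 of the 42 with a 12 h term beside the 24 h term (0.872% of all genes tested passed), of 0.76 ± 0.12 log2 peak to trough with an adjusted *P* of 0.0163, in a curve with a narrow trough and a broad top. It was called in each of the alternatives tried for that test.

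Amt, the aminomethyltransferase of the same system, reached its lowest level later. The normalized values of Amt were 43.6, 51.5 and 51.5 at ZT1, 49.0, 42.8 and 39.7 at ZT5, 26.3, 24.2 and 21.3 at ZT9, 23.4, 19.1 and 19.99 at ZT13, 34.5, 30.2 and 37.0 at ZT17, and 48.1, 53.5 and 49.6 at ZT21. Livers of ZT9 and ZT13 were the lowest 6, and those of ZT17 lay between them and the rest. The peak to trough of 1.33 ± 0.12 log2 was the largest of the 42, at ZT23.8 ± 0.333 h (adjusted *P* = 1.01e-06). At ZT13 Gldc stood at 156 ± 20.3, above its ZT5 mean, while Amt at 20.8 ± 2.29 was at its lowest. Gcsh, the carrier protein on which the other subunits act, had the smallest ratio of the 42 (1.08, adjusted *P* = 0.811), and all of its 18 values lay between 75.9 and 94.9. Whether the 3 genes differ in their course was not tested.

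Among the 4 genes of proline and ornithine, 2 passed. Prodh, proline dehydrogenase, is the first step of proline oxidation. In single livers Prodh stood at 114, 111 and 122 at ZT1, 114, 132 and 165 at ZT5, 172, 122 and 183 at ZT9, 229, 239 and 283 at ZT13, 175, 206 and 178 at ZT17, and 172, 153 and 143 at ZT21. Its ZT13 livers were the 3 highest. The peak to trough was 0.93 ± 0.14 log2 at ZT14.1 ± 0.584 h (adjusted *P* = 0.000305). Prodh2, which oxidizes hydroxyproline, changed 1.25-fold with a later peak at ZT17.7 ± 1.05 h (adjusted *P* = 0.0249), a call lost without ZT17 replicate 2. Aldh4a1, the dehydrogenase that completes both routes, passed the test of any difference (adjusted *P* = 0.0174), with its highest means at ZT5 (438 ± 48.0) and ZT13 (434 ± 15.3), a call lost without ZT5 replicates 1 and 3 together. Exons of Aldh4a1 overlap those of Gm21969 on the same strand. Oat, ornithine aminotransferase, passed that test as well (adjusted *P* = 0.0106) but not the cosine (0.0751). Oat was measured at 365, 309 and 328 at ZT1, 582, 451 and 822 at ZT5, 355, 326 and 389 at ZT9, 393, 431 and 466 at ZT13, 354, 333 and 312 at ZT17, and 373, 328 and 222 at ZT21. Livers of ZT5 were the highest apart from ZT13 replicate 3, and ZT5 replicate 3 was the highest of all. The cosine passed without ZT9 replicate 1 or 2, and without ZT5 replicates 1 and 3 together the test of any difference no longer passed.

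Branched chain catabolism gave 2 calls among 4 genes, both of small size. Bckdha and Bckdhb, the subunits of the decarboxylase of the branched chain ketoacid dehydrogenase, were called with ratios of 1.23 and 1.30 and peaks at ZT7.85 ± 0.933 h and ZT11.6 ± 0.915 h (adjusted *P* = 0.0121 and 0.0107). Exons of Bckdha overlap those of B3gnt8. The acyltransferase subunit Dbt had a ratio of 1.24 (adjusted *P* = 0.0598) and Bckdk, the kinase that switches the complex off, 1.25 (0.235), at means of only 8.70 to 10.8. Dbt passed without ZT5 replicate 1, ZT17 replicate 3 or ZT21 replicate 3, and also with a filter on low values and with a variance trend. Aass, which starts lysine breakdown, had a ratio of 1.21 (adjusted *P* = 0.585).

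Cysteine is turned into taurine by Cdo1, cysteine dioxygenase, and then Csad, cysteine sulfinic acid decarboxylase. Csad passed the 24 h test. Csad values were 372, 359 and 499.9 at ZT1, 342, 244 and 165 at ZT5, 216, 130.4 and 169 at ZT9, 146, 219.6 and 220.4 at ZT13, 271, 239 and 311 at ZT17, and 278, 314 and 346 at ZT21. The 3 livers of ZT1 were the highest of the 18, whereas ZT5 livers spread from the level of ZT1 to that of ZT9. The mean fell from 410.3 ± 77.9 at ZT1 to 172 ± 43.0 at ZT9, with a peak to trough of 1.13 ± 0.20 log2 at ZT22.8 ± 0.686 h (adjusted *P* = 0.00121). Exons of Csad overlap those of Zfp740. Cdo1 had its highest mean at ZT1 and its lowest at ZT9 as well, at a ratio of 1.35 (adjusted *P* = 0.0951), and passed without ZT21 replicate 3.

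**Figure D2:**
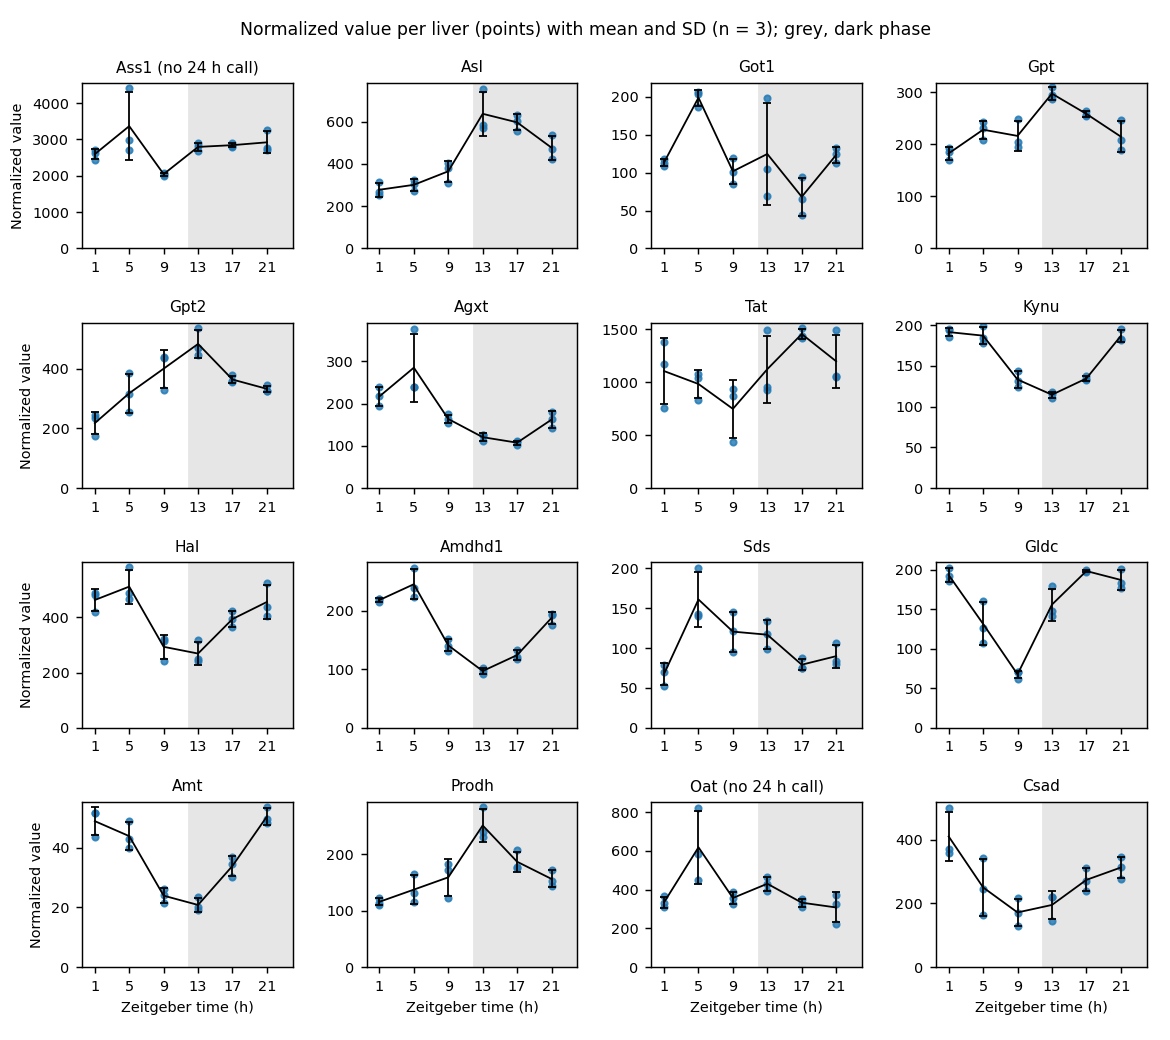
Normalized value (linear, from 0) against zeitgeber time for the 16 genes given in full; points are single livers, the black line joins time point means with SD bars (n = 3), and grey marks the dark phase. Asl, Gpt, Gpt2 and Prodh peak at ZT13, Kynu, Hal, Amdhd1, Agxt and Amt are low at ZT13, and the 3 ZT9 livers of Gldc lie between 61.9 and 70.4.

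The fitted peaks of the 18 genes were spread over the day. From late dark to early light came Csad (ZT22.8), Amt (ZT23.8), Hal (ZT0.326), Kynu (ZT0.963), Amdhd1 (ZT1.98), Agxt (ZT3.56) and Got1 (ZT4.36). Later in the light came Bckdha (ZT7.85), Sds (ZT8.47) and Bckdhb (ZT11.6). After lights off came Gpt2 (ZT12.9), Gpt (ZT13.7), Prodh (ZT14.1), Asl (ZT15.6), Nags (ZT16.5), Prodh2 (ZT17.7), Tat (ZT19.2) and Gldc (ZT20.5). Standard errors of these times ran from 0.308 to 1.17 h, so neighbours such as Gpt2 and Gpt, or Hal and Kynu, lie within their errors of each other.

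**Figure D3:**
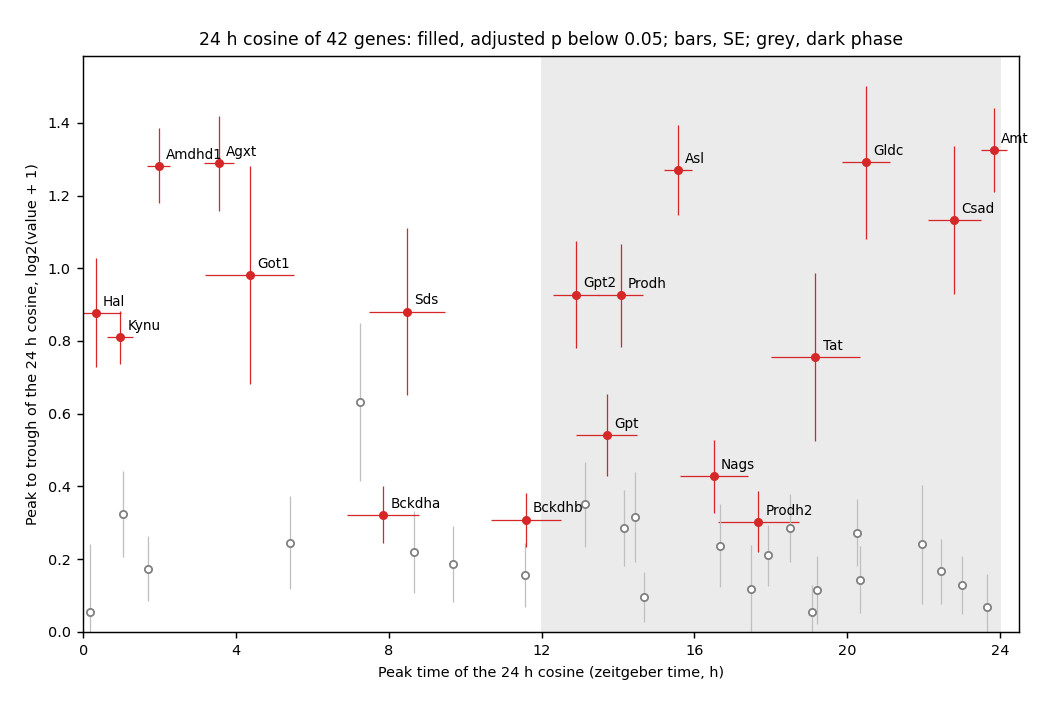
Peak to trough of the 24 h cosine on the log2(value + 1) scale against its peak time in hours for the 42 genes; filled red points passed the 24 h test, open points did not, bars are SE and grey marks the dark phase. Genes with a peak to trough above 1 lie at the start of the light (Amdhd1, Agxt) and in the dark (Asl, Gldc, Csad, Amt), and peak to trough cannot fall below 0, so open points sit above 0 by construction.

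Enzymes with a partner of like or opposite role were compared directly, as the log2 ratio of their values in each liver (5 pairs, permutation test of the cosine over the 18 livers, adjusted over the 5). Prodh over Prodh2 changed most clearly, from -0.57 ± 0.09 (SD, n = 3) at ZT1 to 0.34 ± 0.22 at ZT13. Its peak to trough was 0.79 ± 0.11 (SE), with a permutation *P* of 1e-05, the smallest that 100000 permutations can give, and an adjusted *P* of 5.0e-05. Sds over Sdsl had a peak to trough of 0.91 ± 0.19 with a peak at ZT8.66 (permutation, adjusted *P* = 0.00347). Got1 over Got2 had 1.07 ± 0.30 with a peak at ZT4.21 (permutation, adjusted *P* = 0.0147). These 3 pairs passed with each liver left out in turn, Got1 over Got2 with a permutation, adjusted *P* of up to 0.0452. The call of Got1 itself, lost in several such fits, was adjusted over all genes and not over 5 pairs.

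The other 2 pairs passed by a narrow margin. Gpt over Gpt2 had a peak to trough of 0.41 ± 0.15 (permutation, adjusted *P* = 0.0474), and the call was lost in 10 of the 18 fits with 1 liver left out, as low as 0.30 without ZT1 replicate 2 (adjusted *P* = 0.113). Glul over Gls2 had 0.51 ± 0.23 (permutation, adjusted *P* = 0.0487), and the call was lost in 15 of the 18. The ratio of ZT5 replicate 1 lay more than 1 log2 unit below those of the other 2 livers of ZT5, and without that liver the peak to trough was 0.30 and the call remained.

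**Figure D4:**
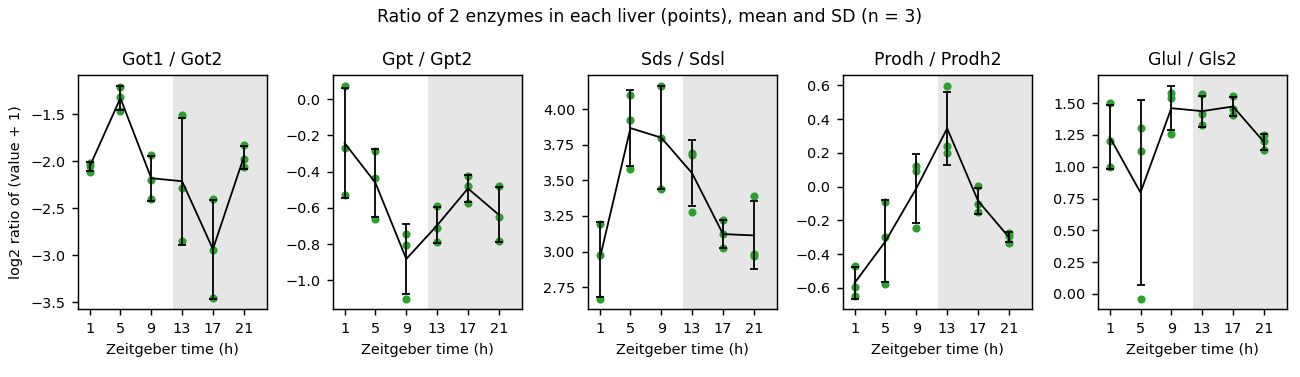
Log2 ratio of (value + 1) of 5 enzyme pairs in each liver against zeitgeber time; points are livers, the line joins means with SD bars (n = 3), and grey marks the dark phase. Prodh over Prodh2 climbs through the light to 0.34 at ZT13, Got1 over Got2 is highest at ZT5 with -1.33, and 1 liver of ZT5 lies far below the others in Glul over Gls2.

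Further genes of the same pathways were listed by name, 89 in all, of which 77 were measured. The 24 h test was passed by 41, 17 with a peak in the light and 24 in the dark. Of all genes tested 35.3% passed, and of those with a mean value of at least 10, 46.7%. The median ratio of the 77 was 1.34. The highest shares were in the aromatic group (8 of 9), the cysteine and taurine group (5 of 5) and the transporters and carriers (14 of 21). The lowest were in branched chain breakdown (5 of 19), in serine and glycine (3 of 9), and in lysine and in proline and asparagine (2 of 6 in each). The 2 deacylases in the list both passed.

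Of these, 8 passed with a ratio of at least 2. Slc7a2, a carrier of arginine, ornithine and lysine, went from 142 ± 18.1 at ZT17 to 736 ± 78.7 at ZT5 (5.18-fold), and Slc38a3, the main glutamine carrier of hepatocytes, from 670.3 ± 43.3 at ZT21 to 1768 ± 192 at ZT5. Both were thus high at the time point where Got1, Agxt and Oat had their highest means. Ddc, aromatic amino acid decarboxylase, was lowest at ZT9 with 32.1 ± 7.84 and highest at ZT21 with 145 ± 24.7 (4.51-fold). Ethe1, a mitochondrial enzyme of sulfide removal, had 19.2 ± 3.14 at ZT9 and 63.4 ± 10.1 at ZT1. A ZT9 trough was also seen in Acmsd, of the kynurenine branch (13.7 ± 1.22, against 44.8 ± 7.57 at ZT17), and in Crat, carnitine acetyltransferase (19.7 ± 4.52, against 55.2 ± 5.79). Ppm1k, the phosphatase that switches the branched chain dehydrogenase on, fell from 84.7 ± 17.3 at ZT5 to 31.8 ± 5.97 at ZT13, 2.66-fold. Its opposing kinase Bckdk, with a mean of only 9.77, was not called. Whether these 2 genes differ in their course was not tested. Slc43a1, a carrier of large neutral amino acids, had 3.84 ± 0.32 at ZT1 and 7.84 ± 1.41 at ZT13.

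**Figure D5:**
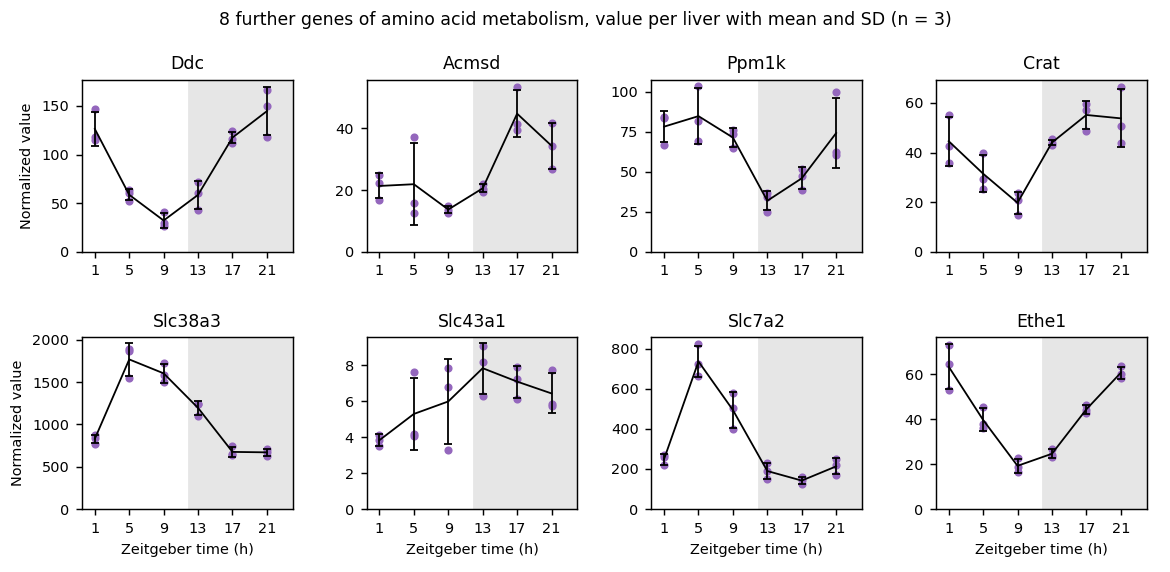
Normalized value (linear, from 0) against zeitgeber time for the 8 further pathway genes with a 24 h rhythm and a ratio of at least 2; points are livers, lines join means with SD bars (n = 3), and grey marks the dark phase. Slc7a2 and Slc38a3 peak at ZT5, Ddc, Ethe1, Acmsd and Crat are lowest at ZT9, and Ppm1k is lowest at ZT13.

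RefSeq promoters of 300 bases, 250 before and 50 after the start on GRCm38.p6, were taken for 32 of the 42 genes and not used for Cps1, Asl, Arg1, Gls2, Gpt, Kynu, Sds, Sdsl, Dbt and Cdo1. They were searched on both strands for 6 motifs. The E-box CACGTG, bound by the clock activators, was in the promoter of Ass1 and in 7.15% of all 32851 promoters. The RORE core TAGGTCA, bound by ROR and REV-ERB receptors, was in Glul, Tdo2 and Aass and in 2.61% of all. AGAACA, the core to which each unit of the glucocorticoid receptor binds, was in Agxt, Kmo, Haao, Bckdk and Bckdhb, of which Agxt and Bckdhb had a 24 h rhythm, and in 19.0% of all. The D-box TTATGTAA (0.938% of all), the CRE TGACGTCA (1.79%) and the C/EBP site TTGCGCAA (0.183%) were in none of the 32. Of the 4 printed promoters, those of Hal, Amdhd1 and Gldc held no match.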

How the data were processed

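The analysis started from the deposited table of normalized values, 1 column per liver, in which no value column was left unmapped (0 columns). Per the labels and the study's methods, libraries of polyadenylated RNA made with a kit that does not mark strand were sequenced as single reads, and the authors used CASAVA 1.8.2, Cutadapt and RSEM 1.2.20 on the GRCm38 transcriptome of Ensembl, then limma for normalization. The deposited signal is an estimated count plus 0.5 reads per 1000000 reads of the authors' effective library size, so values move with that scaling. RSEM divides reads shared by similar genes.

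Groups were the zeitgeber times in the labels, and nothing pairs livers across them. Of the 14451 genes, 2 never rose above the offset and were left out. With limma 3.58.1 (R 4.3.3), log2(value + 1) of 14449 genes was fitted by a 24 h cosine and sine, by 6 time point means, and by 12 h terms beside those of 24 h, each judged by a moderated F test with Benjamini-Hochberg adjustment over all genes tested at 0.05. JTK, written again from its description, compared ranks with 18 cosine orders of 20, 24 and 28 h. Pair ratios were tested with 100000 permutations. Python 3.11.15 with numpy 2.4.6 and pandas 2.3.3 did the rest. CircaN and MetaCycle, which the study also used, were not run, since the curve constants of CircaN are not given in the sources used here. The limma fits and JTK were also run on simulated data, and the outcome is not given here.

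Genes were given in full when they passed the 24 h test, the 12 h test or only the test of any difference, with a highest time point mean of at least 1.5 times the lowest. Other genes were named at a ratio of at least 2. The 42 genes, the other gene lists, the tests and the marker lists were chosen with earlier results of these data known. Positions came from GENCODE M21 and promoters from RefSeq on GRCm38.p6. Alternatives covered the added constant, a filter on low values, the scaling, a variance trend, the test, and each liver left out in turn. Leaving out ZT5 replicates 1 and 3 together was chosen after seeing the data.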

Additional observations from a re-analysis of the deposited data

How the results depend on the processing

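The number of genes with a 24 h rhythm, 18, stayed between 15 and 21 with each liver left out in turn, and between 16 and 21 under another added constant, a filter, other scalings, a variance trend, a joint fit with 12 h terms, and without ZT5 replicates 1 and 3. Only the JTK test in place of limma moved it by more than 1.5 times, to 11. Calls for any difference stayed between 15 and 24, calls by JTK between 9 and 14, and the 12 h call of Gldc was made each time. Of the 16 genes given in full, 12 of the 14 called by the 24 h test kept that call in the 25 alternatives that keep the limma cosine alone, while Got1 lost it in 12 and Tat in 15, Oat gained a call in 3 and Ass1 in 1. JTK did not call Sds, Got1 and Tat, and the joint fit with 12 h terms lost Got1 and gained Oat. No direction reversed. With 1 liver left out, the peak to trough of Gpt over Gpt2 ran from 0.30 to 0.49 log2 and that of Glul over Gls2 from 0.30 to 0.62. No paired analysis was possible because the livers of different time points come from different mice and share no replicate number in the labels.

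With 3 mice at each of 6 times over a single day, the precision rests on the spread between mice, and a rhythm cannot be seen to repeat. No value of the 42 genes stood for fewer than 76 reads. The part of counting error in the spread was not measured. Relative counting error is largest for the genes with the lowest means, Sdsl (8.80) and Bckdk (9.77). The labels do not say when each mouse was dissected or sequenced beyond its time point, so a batch of that kind and time of day cannot be told apart.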

Other observations

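Of 30 listed regulators of amino acid metabolism and clock outputs, 29 were measured and 23 passed the 24 h test (35.3% of all genes tested did), 13 with a peak in the light and 10 in the dark. The list includes clock genes, which were known to be rhythmic when it was made. Among the regulators outside the clock, the glucocorticoid-responsive genes Fkbp5 and Tsc22d3 had their highest means at ZT13 (119 ± 82.6, SD, n = 3) and ZT17 (109.5 ± 15.7), at 7.74 and 2.75 times the lowest. Fkbp5 at ZT13 spread from 49.7 to 210.3 over the 3 livers. Its highest liver, replicate 1, was also the highest of ZT13 in Got1. The same liver was the lowest of ZT13 in Tsc22d3 (72.6) and in Tat (927), and a link between these genes was not tested. Pck1, which diverts carbon from amino acids to glucose, was highest at ZT9 (1590 ± 528) and lowest at ZT17 (324 ± 114). Ddit3, of the amino acid stress response, was highest at ZT13 (12.7 ± 1.01) and lowest at ZT5 (4.47 ± 0.53), and Fgf21 had means of at most 2.18. The other genes past the test with a ratio of at least 2 were Nr1d1, Nr1d2, Tef and Dbp, highest at ZT5 or ZT9, Per1 at ZT9, Hlf and Per2 at ZT13, and Arntl and Nfil3 at ZT1. Gcgr, the glucagon receptor, and Creb1, Crtc2, Creb3l3, Foxa2 and Cebpb were not called.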
